A study of Mus musculus with 2 samples.

Results

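The genes described here are Crem and 7 other genes that control signalling through cyclic AMP, 8 of the 15121 genes in the table: Crem, Creb1, Pde4a, Pde4b, Pde4d, Pde3b, Prkar1a and Adora2a. They were taken from the table by symbol, and all 8 were found. The set was selected on earlier results of these same data, among them the treated over untreated ratio of Crem, so the ratios below are descriptions and no test was made on them. T cells of an Nras-mutated syngeneic mouse melanoma model, labelled NILER and sampled on day 5, were profiled by droplet single-cell RNA sequencing of 3' ends. One library came from the model treated with Trametinib+BGB-283, a MEK inhibitor and a RAF dimer inhibitor given together, and the other from the untreated model. Both groups carry the same tumour, a UV-exposed derivative of a mouse melanoma line with Nras Q61R, and the labels give no strain, age, dose or number of animals. With 1 library in each group, the drugs cannot be told apart from any other difference between the libraries, and every interval below is a 95% interval that covers counting error only.

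Cyclic AMP is made by adenylyl cyclases when a receptor such as the adenosine receptor Adora2a activates a stimulatory G protein, and phosphodiesterases break it down. It releases the catalytic subunits of protein kinase A (PKA) from regulatory subunits such as Prkar1a, and PKA phosphorylates the transcription factor CREB (Creb1), which binds cyclic AMP response elements. Crem encodes a relative of Creb1 whose products include activators and repressors, among them ICER, a short repressor made from a promoter inside the gene that cyclic AMP itself turns on. In T cells, cyclic AMP restrains signalling from the antigen receptor, and the Pde4 enzymes and Pde3b, which is sensitive to cyclic GMP, lower it. The 3' ends read here do not separate ICER from the other products of Crem. An antisense gene, Gm6225, overlaps Crem in the GENCODE vM21 annotation, and whether counting used the strand is not given in the sources used here.

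Cells were gated by unique molecular identifiers (UMIs, one for each captured RNA molecule) of genes outside the set. The gates held 4690 treated and 4116 untreated CD8 T cells, 484 and 906 CD4 T cells, 418 and 485 Foxp3-positive T cells, and 73 and 292 dendritic cells. Median UMIs per CD8 T cell were 6426.5 in the treated and 6455.5 in the untreated library, with 2140 and 1789.5 median genes per cell and 3.71% and 4.44% mitochondrial UMIs, and 35 cell barcodes occurred in both libraries. Both samples are labelled T cells, but cells in both passed the dendritic gate, which allows no UMI of Cd3e, Cd3d, Cd3g or Trac. The gate also requires 5 or more UMIs of class II MHC genes and 2 or more dendritic genes, a list that includes Fscn1 and Ccl22. The label thus does not cover all cells. In this gate the same class II MHC genes summed to 37472 CPM (UMIs per 1000000 UMIs of the class) in treated and 39709 CPM in untreated cells. A high sum is in part set by the gate, so it is no independent sign of cell type. In CD8 T cells, class II MHC genes summed to 408 CPM in the treated and 1718 CPM in the untreated library, 5 macrophage genes to 5.73 and 16.5 CPM, and the stromal or tumour genes Col1a1, Col3a1 and Pmel to 91.4 and 18.7 CPM; the part of other cells' RNA in the results was not tested.

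Promoters in the RefSeq table of GRCm38.p6 were searched for the response element, for the genes of the set that had one there. The full element, TGACGTCA, and its core, TGACG, were searched on both strands in windows of 300 bases, 250 before and 50 after each start; the core is contained in the full element. Windows were found for 5 of the 8 genes. There was none for Crem, Pde3b or Adora2a, so no promoter of Crem, that of ICER included, was examined. The full element was present in 2 overlapping windows of the 6 for Prkar1a, 49 bases before the start in the one printed; 2.03% of all 27025 genes had a window with it, and 1.79% of all 32851 windows held it. The core occurred in 1 of 3 windows of Pde4a (50 bases before the start), 1 of 4 of Pde4b (34 bases before) and 3 of 6 of Prkar1a. That is 3 of 5 genes, against 23% of all genes and 20.8% of all windows. These 3 genes have several windows each, against 32851 windows for all 27025 genes. They had more chances of a match than a gene with 1 window, so the shares by gene are not like for like. The single windows of Pde4d and Creb1 held neither motif. Nr4a3, a CREB target described below, had 4 cores, and 11 of 12 CREB targets with a window had 1 or more; those genes are known for CREB binding, so this count is no independent observation. A match to these letters does not show that a factor binds there. One window with a match is printed for each of 4 genes, 5′ to 3′ on the plus strand, the strand of all 4 genes, with the matches in capitals; CGTCA is the core read on the other strand.
Prkar1a, chr11:109650699-109650998: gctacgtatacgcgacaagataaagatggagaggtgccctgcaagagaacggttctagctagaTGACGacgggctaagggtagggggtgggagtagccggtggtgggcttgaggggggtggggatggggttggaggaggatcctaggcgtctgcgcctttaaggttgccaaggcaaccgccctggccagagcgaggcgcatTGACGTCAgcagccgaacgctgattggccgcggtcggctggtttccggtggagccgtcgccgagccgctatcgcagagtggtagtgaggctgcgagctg
Pde4a, chr9:21183851-21184150: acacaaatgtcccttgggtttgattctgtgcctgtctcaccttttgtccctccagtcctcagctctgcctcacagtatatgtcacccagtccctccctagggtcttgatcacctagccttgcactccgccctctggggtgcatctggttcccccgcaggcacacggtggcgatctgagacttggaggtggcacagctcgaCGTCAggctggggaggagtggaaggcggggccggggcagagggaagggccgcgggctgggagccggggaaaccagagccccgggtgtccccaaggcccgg
Pde4b, chr4:102421305-102421604: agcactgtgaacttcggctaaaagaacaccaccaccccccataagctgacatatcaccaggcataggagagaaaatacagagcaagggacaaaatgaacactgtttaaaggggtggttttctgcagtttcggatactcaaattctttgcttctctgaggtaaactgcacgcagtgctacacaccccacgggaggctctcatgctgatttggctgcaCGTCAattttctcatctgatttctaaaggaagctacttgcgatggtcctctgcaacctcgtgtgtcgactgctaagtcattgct
Nr4a3, chr4:48045055-48045354: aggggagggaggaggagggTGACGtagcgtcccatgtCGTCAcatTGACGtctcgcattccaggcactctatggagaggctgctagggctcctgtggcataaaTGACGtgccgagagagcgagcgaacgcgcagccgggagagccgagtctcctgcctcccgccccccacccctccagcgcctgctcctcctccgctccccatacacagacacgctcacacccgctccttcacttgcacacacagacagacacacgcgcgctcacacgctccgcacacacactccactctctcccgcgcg

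In CD8 T cells, 6 of the 8 genes were at least 1.5-fold higher in the treated library and 0 were lower, against 32.4% of 5755 genes higher and 13.9% lower. All genes counted had at least 20 CPM and 10 UMIs in 1 or both libraries. Crem itself was at 934 CPM (interval 924 to 945) in treated and 98.3 CPM (95.1 to 102) in untreated CD8 T cells, a ratio of 9.51 (9.18 to 9.85). It ranked 5th of the 5755 genes by ratio. Pde4d was at 204 CPM in treated and 30.4 CPM in untreated cells, a ratio of 6.73 (6.31 to 7.18) and the 19th highest. Pde4a was at 26.7 CPM in treated and 4.79 CPM in untreated cells, 5.56-fold (4.72 to 6.59) and 33rd; its log2 ratio of 2.48 was 1.82 without naive-state cells and 3.37 without cycling cells. The genes that gave the highest ratios thus include the transcription factor and 2 enzymes that break down cyclic AMP.

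The other 5 genes differed less. Pde3b was at 124 CPM in treated and 57.5 CPM in untreated CD8 T cells, a ratio of 2.15 (2.04 to 2.27). Creb1 was at 66.7 and 41.8 CPM in treated and untreated cells, a ratio of 1.60 (interval 1.495 to 1.71), and Prkar1a at 346 and 227 CPM, a ratio of 1.53 (1.48 to 1.57). Pde4b, at 55.4 and 38.8 CPM, and Adora2a, at 44.5 and 30.9 CPM, were within 1.5-fold with ratios of 1.43 and 1.44. Without cycling cells, or as a mean of cells, the log2 ratio of Adora2a was 0.76, past 1.5-fold. It was 0.22 without naive-state cells. The median log2 ratio of all genes in this class was 0.21, and with ratios taken relative to that median Creb1 (log2 0.47) and Prkar1a (0.41) also fell within 1.5-fold. Crem and its closest relative Creb1 therefore had ratios of 9.51 and 1.60 in the same cells.

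**Figure D1:**
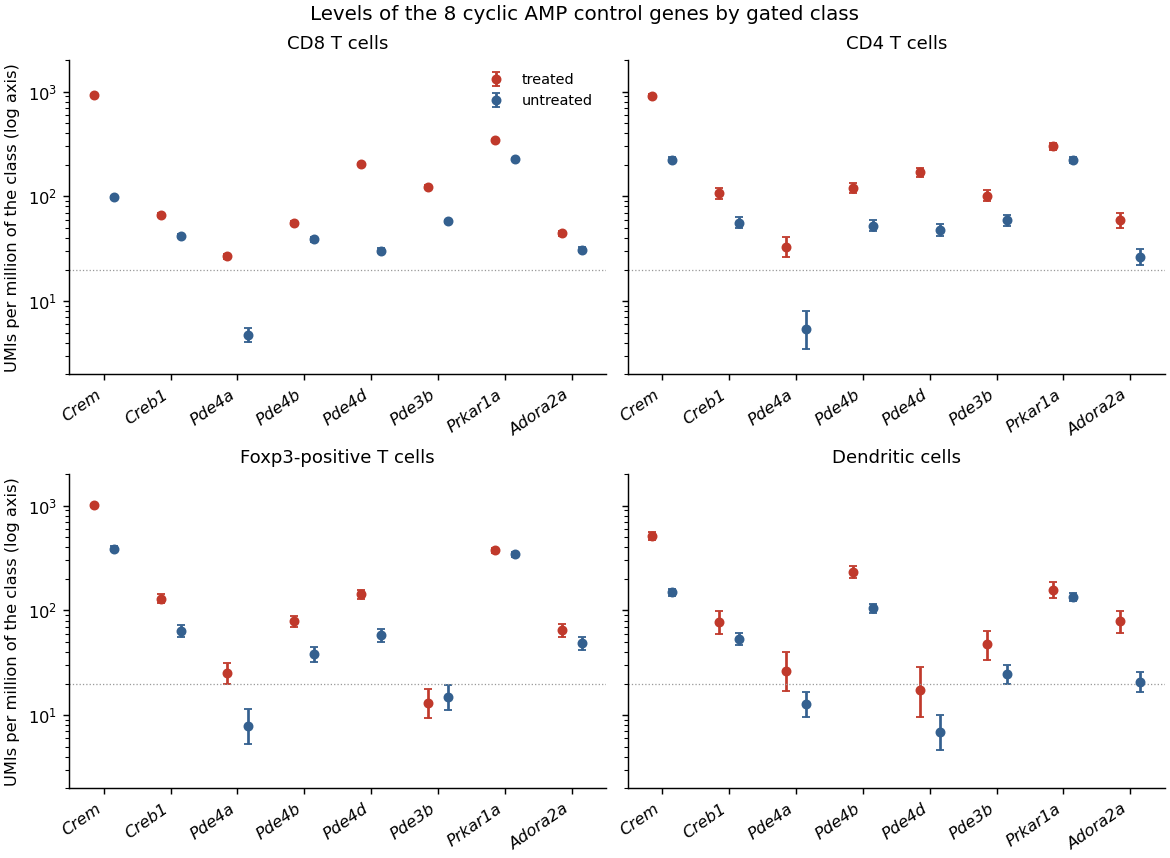
Level of each gene in CPM of the class (log axis) in treated (red, left) and untreated (blue, right) cells of 4 gated classes; bars are exact Poisson 95% intervals and the dotted line marks 20 CPM. Crem, at 934 against 98.3 CPM in CD8 T cells, has the widest gap there, while Pde3b in Foxp3-positive T cells lies below the line in both libraries.

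In CD4 T cells, 7 of the 8 genes were at least 1.5-fold higher in the treated library and 0 lower, against 25.7% of 5733 genes higher and 16.6% lower. Crem was at 915 CPM in treated and 224 CPM in untreated cells, a ratio of 4.08 (3.79 to 4.40). Pde4a had a larger ratio than Crem here, 6.08 (3.84 to 9.94), at 32.9 and 5.42 CPM in treated and untreated cells, from 81 and 25 UMIs. Pde4d was at 170 CPM in treated and 47.9 CPM in untreated cells, 3.54-fold (3 to 4.19). Pde4b, within 1.5-fold in CD8 T cells, had a ratio of 2.28 (1.92 to 2.71) in CD4 T cells, and Adora2a one of 2.25 (1.75 to 2.88). Pde3b and Creb1 had ratios of 1.72 and 1.91. Prkar1a, at 300.4 CPM in treated and 224 CPM in untreated cells, was the gene within 1.5-fold, with a ratio of 1.34 (1.22 to 1.48).

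In Foxp3-positive T cells, 7 genes passed the minimum and 5 were at least 1.5-fold higher in the treated library, with 0 lower, against 17.9% of 5830 genes higher and 11% lower. Crem was at 1011 CPM in treated and 390 CPM in untreated cells, a ratio of 2.60 (2.44 to 2.77). Pde4a (3.17-fold), Pde4d (2.47), Pde4b (2.06) and Creb1 (2.02) were also higher, with intervals entirely above 1.5-fold. Adora2a had a ratio of 1.34 and Prkar1a one of 1.09. Pde3b fell below the minimum, at 13.2 CPM in treated and 14.98 CPM in untreated cells, against 102 and 59.2 CPM in CD4 T cells of the same libraries. Foxp3 is known to repress Pde3b in mouse regulatory T cells, and this low level was found in both libraries.

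In dendritic cells, 5 of the 7 genes past the minimum were at least 1.5-fold higher in the treated library and 0 lower, against 23.4% of 5728 genes higher and 12.4% lower. Crem was at 513 CPM in treated and 149 CPM in untreated cells, a ratio of 3.44 (3.04 to 3.89). Adora2a had the largest ratio of the set in this class, 3.75 (2.69 to 5.21), at 78.5 and 20.9 CPM in treated and untreated cells. Pde4b (2.23-fold), Pde3b (1.93) and Pde4a (2.08, from 23 and 53 UMIs) were higher too, although only Crem, Pde4b and Adora2a had intervals wholly above 1.5-fold. Pde4d was below the minimum at 17.3 CPM in treated and 6.98 CPM in untreated cells. The dendritic gates differ in make-up: Fscn1 and Ccl22, genes of mature dendritic cells, summed to 2067 CPM in treated and 581 CPM in untreated cells, and the neutrophil genes S100a8 and S100a9 to 177 and 0.722 CPM, and the median mitochondrial share was 2.68% and 3.75%. The part of these differences in the ratios was not tested.

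Adora2a was found mainly in the dendritic cells with a UMI of Fscn1 or Ccl22. Of its UMIs in dendritic cells, 67 of 68 in the treated and 80 of 87 in the untreated library came from cells with a UMI of Fscn1 or Ccl22, a split chosen after the values were seen. These were 36 of 73 treated and 63 of 292 untreated dendritic cells. Within them Adora2a was at 208 CPM in treated and 99.3 CPM in untreated cells, a ratio of 2.09 (1.49 to 2.93), and in the remaining dendritic cells it was at 1.84 CPM in treated and 2.09 CPM in untreated cells. Crem was not divided in this way: it was at 487 CPM in treated and 155 CPM in untreated cells with Fscn1 or Ccl22, and at 528 and 147 CPM in treated and untreated cells without them.

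Across the classes, the order of Crem levels differed between the libraries. In treated cells, Foxp3-positive cells were first at 1011 CPM, followed by CD8 T cells at 934 CPM and CD4 T cells at 915 CPM, whose difference was within counting error (ratio 1.02, 0.979 to 1.07), and dendritic cells at 513 CPM. In untreated cells the order was Foxp3-positive (390 CPM), CD4 (224 CPM), dendritic (149 CPM) and CD8 T cells (98.3 CPM), and each step lay outside counting error. CD8 T cells, the lowest class for Crem without drugs, thus lay level with CD4 T cells in the treated library. For Pde4a, no 2 neighbouring classes in the treated library differed beyond counting error (25 to 32.9 CPM). Pde4d was lowest in dendritic cells of both libraries and Pde3b lowest in Foxp3-positive cells of both.

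CD8 T cells were divided by genes outside the set into cycling cells (2 or more UMIs of Mki67, Top2a, Birc5 and Cdk1), PD-1 cells (a UMI of Pdcd1), naive-state cells (2 or more UMIs of naive T cell genes that include Ccr7 and Lef1) and others. The mix differed strongly: PD-1 cells were 57.4% of treated and 13.9% of untreated CD8 T cells, and naive-state cells 13.8% and 60.8%. Crem was nonetheless higher within each state. Naive-state cells had 426 CPM in the treated and 35.1 CPM in the untreated library (12.1-fold, 11 to 13.4), and PD-1 cells 1167 and 222 CPM (5.26-fold, 4.97 to 5.58). Cycling cells had 670 CPM in the treated and 130 CPM in the untreated library, a ratio of 5.17, and the other cells 749 and 69.7 CPM, a ratio of 10.7. When the state levels of each library were weighted by the treated mix, the log2 ratio of Crem was 2.57, and with the untreated mix 2.92, against 3.25 as measured.

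Pde4d moved much as Crem did across the states, with ratios of 8.19 in naive-state, 4.24 in PD-1, 4.61 in cycling and 10.7 in the other CD8 T cells. Pde3b was 1.90-fold higher in naive-state and 2.55-fold higher in PD-1 cells. Pde4b was at 118 CPM in treated and 43.4 CPM in untreated naive-state cells, 2.72-fold (2.41 to 3.07), but at 46.7 and 44.1 CPM in treated and untreated PD-1 cells, a ratio of 1.06 (0.917 to 1.22). Adora2a was within 1.5-fold in all 4 states, with 51.0 CPM in treated and 50.1 CPM in untreated PD-1 cells (ratio 1.02, 0.890 to 1.17). Prkar1a had ratios of 1.23 to 1.59 and passed 1.5-fold in the other cells alone. Pde4a had only 33 and 14 UMIs in treated and untreated naive-state cells, below the minimum.

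**Figure D2:**
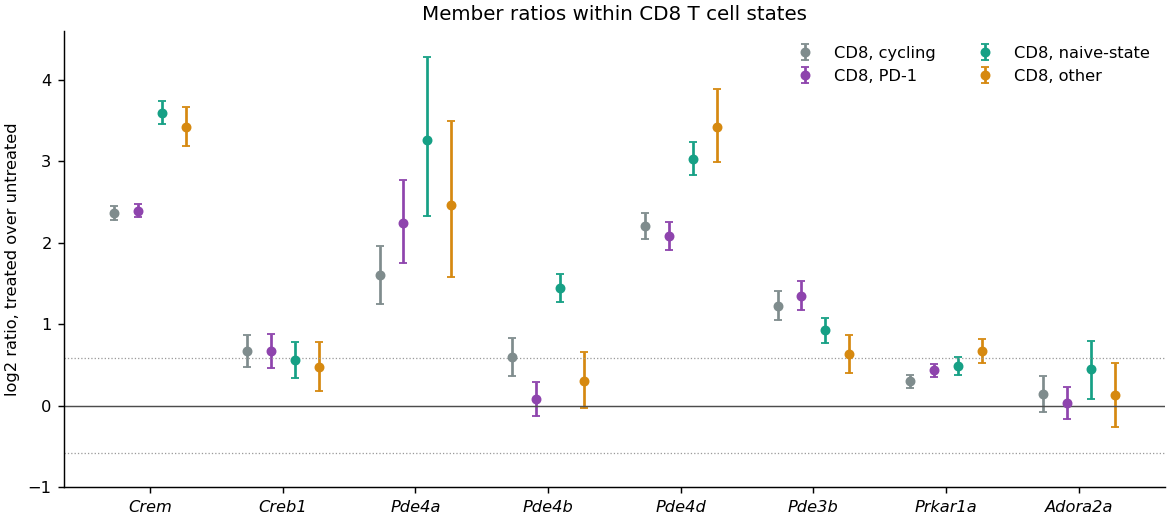
Log2 ratio of treated over untreated levels of the 8 genes within 4 CD8 T cell states (colours), with exact 95% counting intervals; dotted lines mark 1.5-fold. Crem and Pde4d lie above 2 in every state shown, Pde4b lies near 0 in PD-1 cells (0.08) and at 1.44 in naive-state cells, and Adora2a stays between 0.03 and 0.44.

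The same division of CD4 and Foxp3-positive T cells, together with the 2 dendritic groups, gave 14 populations. Crem was at least 1.5-fold higher in the treated library in 14 of 14, with ratios from 2.15 to 12.1. With no minimum applied, Pde4a was so in 14, Pde4d in 13, Pde4b in 12, Pde3b in 10, Creb1 in 9, Adora2a in 7 and Prkar1a in 2. Pde3b was at least 1.5-fold lower in 1. The share over all genes was not computed, and the populations divide the same 2 libraries, so they are no repeats. In treated T cells the level of Crem spanned 2.81-fold, with 426 CPM in CD8 naive-state cells the lowest and 1198 CPM in Foxp3-positive PD-1 cells the highest. In untreated T cells the same 2 populations were the extremes, at 35.1 and 529 CPM, a span of 15.1-fold. PD-1 cells exceeded naive-state cells in Crem 2.74-fold in treated and 6.31-fold in untreated CD8 T cells. In CD4 T cells they did so 1.57-fold in the treated and 7.49-fold in the untreated library. CD4 naive-state cells accordingly had a Crem ratio of 10.3 (8.43 to 12.5), at 645 CPM in treated and 63.0 CPM in untreated cells, against 2.15 (1.90 to 2.45) in CD4 PD-1 cells. Foxp3-positive states had Crem ratios between 2.26 and 3.20. Adora2a spanned 4.26-fold over treated and 4.27-fold over untreated T cell populations, with CD8 naive-state cells lowest in the treated and CD4 naive-state cells lowest in the untreated library.

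**Figure D3:**
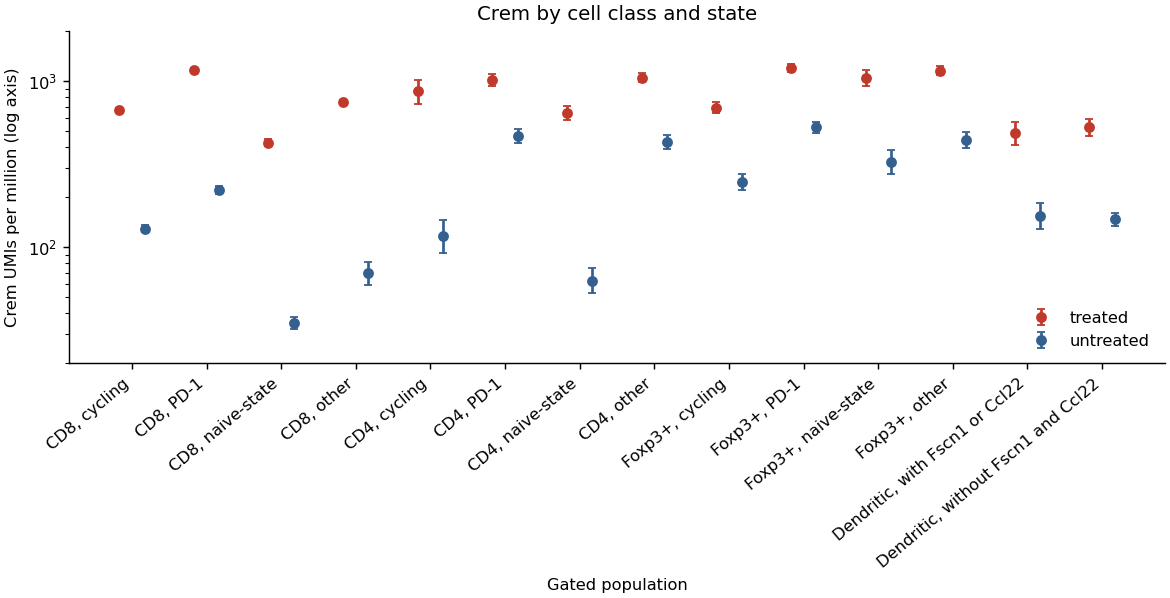
Crem level (CPM, log axis) in 14 gated populations of treated (red, left) and untreated (blue, right) cells; bars are exact Poisson 95% intervals. Treated levels exceed untreated ones in every population, and over T cells the treated levels spread from 426 to 1198 CPM, against 35.1 to 529 CPM in untreated ones.

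The difference in Crem was spread over many cells. After each cell was thinned to 2000 UMIs, 71.0% of 4607 treated and 12% of 4054 untreated CD8 T cells had a Crem UMI (88.1% and 29.5% unthinned); 83 treated and 62 untreated cells were too shallow. The median treated cell had 1 Crem UMI with a 90th percentile of 5, while the median untreated cell had 0, with a 90th percentile of 1. In treated CD8 T cells, 22.6% were at 1 UMI, 16.9% at 2, 20.6% at 3 or 4 and 10.5% at 5 to 9. These groups of counts differ in width, so whether the cells form a second group cannot be read from them. Crem UMIs were found in 63.8% of treated and 24.8% of untreated CD4 T cells, 72.7% and 48.8% of Foxp3-positive T cells, and 59.7% and 21.5% of dendritic cells. Pde3b was found in 2.71% of treated and 2.12% of untreated Foxp3-positive T cells (median 5571 and 5469 UMIs). In CD8 T cells the shares for Pde3b were 22.5% and 11.7%. Pde3b was at a lower level than Crem, so these shares do not measure the background of Crem. No class without Crem was available.

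**Figure D4:**
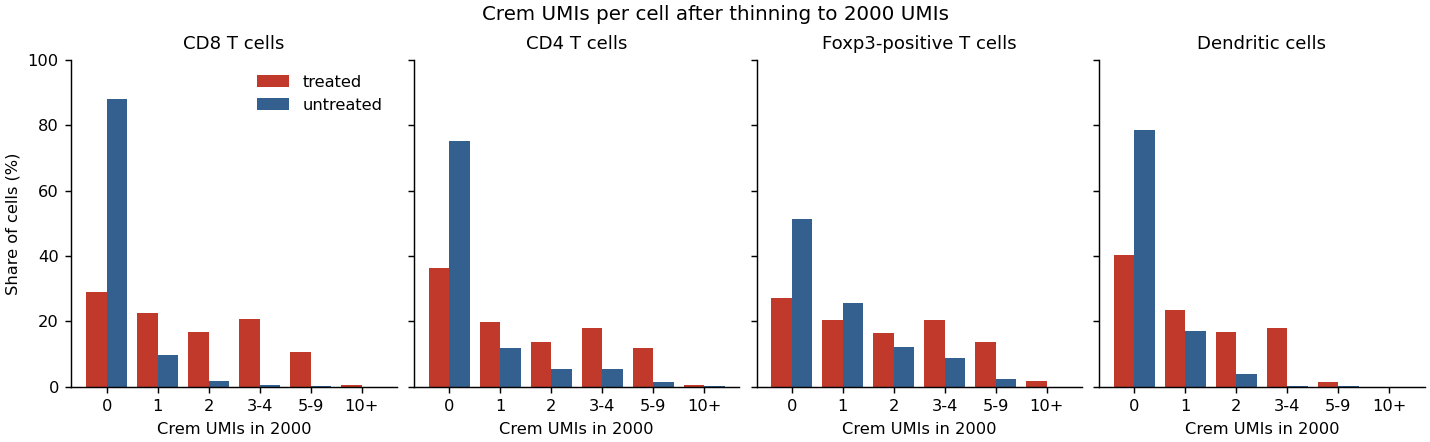
Share of cells (%) by number of Crem UMIs after thinning to 2000 UMIs per cell, in treated (red, left) and untreated (blue, right) cells of each class. Cells without a Crem UMI are 29.0% of treated and 88.0% of untreated CD8 T cells. Bars from 3 UMIs up each hold more than 1 count, so their heights do not show the shape of the distribution.

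Within treated CD8 T cells, other genes were read against the number of Crem UMIs in the same thinned cell, as a description of cells that share a library. Pdcd1, which encodes PD-1, averaged 0.426 UMIs in cells without a Crem UMI after thinning and 0.891 in cells with 5 or more. Tcf7, a transcription factor high in naive T cells, averaged 0.194 and 0.0159 in the same cells. Pde4d averaged 0.329 and 0.497, Prkar1a 0.562 and 0.819, and Pde4a 0.0411 and 0.0755. Pde4b went the other way, at 0.133 and 0.105. Creb1, at 0.127 and 0.115, and Pde3b, at 0.244 and 0.254, were nearly level. Within treated PD-1 cells alone, however, Pde4b averaged 0.0707 without a Crem UMI and 0.101 with 5 or more. Its fall over all treated CD8 T cells was thus not seen within that state. Pde4a, Pde4d and Prkar1a were higher with 5 or more Crem UMIs in PD-1 cells too. In untreated CD8 T cells, 20 cells had 3 or 4 Crem UMIs and 4 had more, too few for the same reading. Treated cells with no Crem UMI after thinning averaged 0.329 UMIs of Pde4d, against 0.0524 in such untreated cells. Before thinning 88.1% of treated CD8 T cells had a Crem UMI, against 71% after, so many of these treated cells did hold Crem.

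Other genes of the pathway were read from 11 lists with 84 genes, the 8 described here included, chosen with earlier results of these data known. In CD8 T cells 47 passed the minimum, of which 32 were at least 1.5-fold higher in the treated library and 3 lower, with a median log2 ratio of 0.79 against 0.21 for all genes; of all genes, 32.4% were higher and 13.9% lower. In CD4 T cells 27 of 49 were higher and 1 was lower, against 25.7% and 16.6% of all genes. In Foxp3-positive T cells 21 and 0 of 48 were higher and lower, against 17.9% and 11%, and in dendritic cells 20 and 3 of 49, against 23.4% and 12.4%. Among receptors, Ptger4, which binds prostaglandin E2, was at 29.6 CPM in treated and 13.1 CPM in untreated cells (2.26-fold), the one of 3 that was higher, a share near that of all genes (32.4%). Of 5 G protein genes 1 was higher, also no more than the share of all genes: Gnai3 at 1.501-fold, which encodes an inhibitory alpha subunit. Gnb1 (1.38), Gnai2 (1.01) and Gnb2 (0.746) were within 1.5-fold. Adcy7, the one adenylyl cyclase past the minimum, was at 65.2 CPM in treated and 62.5 CPM in untreated cells (1.04-fold, 0.984 to 1.11). In dendritic cells Adcy6, named after its values were seen, was at 68.1 CPM in treated and 12.03 CPM in untreated cells (5.66-fold, 3.82 to 8.42).

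Of 5 phosphodiesterases past the minimum 4 were higher and 0 lower, against 32.4% and 13.9% of all genes, with Pde7a, which is specific for cyclic AMP, at 122 CPM in treated and 59.0 CPM in untreated cells (2.06-fold). The count was 6 of 6 in CD4 T cells (25.7% of all genes), 5 of 5 in Foxp3-positive T cells (17.9%) and 4 of 5 in dendritic cells (23.4%). All but Pde7a of those past the minimum in CD8 T cells belong to the set selected on these data, as do most in the other classes. The counts thus largely repeat the ratios of the set given above. Pde2a, which cyclic GMP stimulates, went the other way in CD8 T cells but below the minimum, at 5.14 CPM in treated and 11.6 CPM in untreated cells. Among 4 PKA genes 3 were higher, against the same 32.4%: the regulatory subunit Prkar2a at 2.09-fold, the catalytic subunit Prkacb at 1.69-fold and Prkar1a, while the catalytic subunit Prkaca had a ratio of 1.23. Of 5 anchoring proteins, which hold PKA at particular sites in the cell, 4 were higher, against 32.4%. Akap12 led them at 32.5 CPM in treated and 3.90 CPM in untreated cells (8.34-fold, 6.99 to 10.0), ahead of Akap13 (1.80) and Akap9 (1.52), with Akap8l at 1.29. In CD4 and Foxp3-positive T cells Akap12 was below the minimum, with ratios of 1.04 (0.578 to 1.81) and 1.10 (0.692 to 1.73). Neither EPAC gene, the other sensor of cyclic AMP, reached the minimum in any class.

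Of 7 CREB family and coactivator genes, 5 were higher in CD8 T cells and 0 lower, against 32.4% and 13.9% of all genes. Crem and Creb1 of the set are among the 5. The acetyltransferase Ep300, which CREB recruits, was at 125 CPM in treated and 42.2 CPM in untreated cells (2.95-fold), and Atf1 and Crtc3 had ratios of 1.41 and 1.17. The salt-inducible kinases, which keep CREB coactivators out of the nucleus and are themselves inhibited by PKA, were higher in 3 of 3 cases (32.4% of all genes), with Sik1 at 178 CPM in treated and 50.3 CPM in untreated cells (3.54-fold), Sik3 at 2.91-fold and Sik2 at 2.05-fold. Among 13 CREB target genes past the minimum, Crem and Sik1 included, 12 were higher and 1 lower, against 32.4% and 13.9% of all genes. These lists share genes with each other and with the set, so their counts are not separate observations. Nr4a3, an orphan nuclear receptor that antigen receptor signalling also induces, was at 579 CPM in treated and 39.0 CPM in untreated cells (14.8-fold, 14.1 to 15.7), and Gem, a small GTPase, had a ratio of 1.61. Fos, which ERK signalling also induces, was the lower one, at 112 CPM in treated and 181 CPM in untreated cells (ratio 0.619). The target counts in the other classes were 11 higher and 1 lower of 14 in CD4 T cells (25.7% and 16.6% of all genes), 9 and 0 of 14 in Foxp3-positive T cells (17.9% and 11%), and 6 and 0 of 13 in dendritic cells (23.4% and 12.4%).

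Of 3 genes that handle adenosine, the ligand of Adora2a, 1 was higher in CD8 T cells and 2 were lower, against 32.4% and 13.9% of all genes. Entpd1 (CD39), which starts the conversion of extracellular ATP towards adenosine, was at 34.5 CPM in treated and 22.1 CPM in untreated cells (1.56-fold). Adenosine kinase (Adk), which removes adenosine inside the cell, was at 11.95 and 26.6 CPM in treated and untreated cells (ratio 0.449), and the transporter Slc29a1 at 17.3 and 27.3 CPM (ratio 0.636). In the other classes Adk was within 1.5-fold, with ratios above 1: 109.3 CPM in treated and 76.1 CPM in untreated CD4 T cells (1.44), and ratios of 1.19 in Foxp3-positive T cells and 1.35 in dendritic cells. Entpd1 was within 1.5-fold in Foxp3-positive T cells, with a ratio of 0.776. Nt5e (CD73), which forms adenosine outside the cell and was named after its values were seen, had ratios of 1.91 in CD4 and 1.72 in Foxp3-positive T cells. It was the 1 higher of 3 list genes in CD4 (25.7% of all genes) and of 4 in Foxp3-positive T cells (17.9%). Both counts are near the share of all genes.

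**Figure D5:**
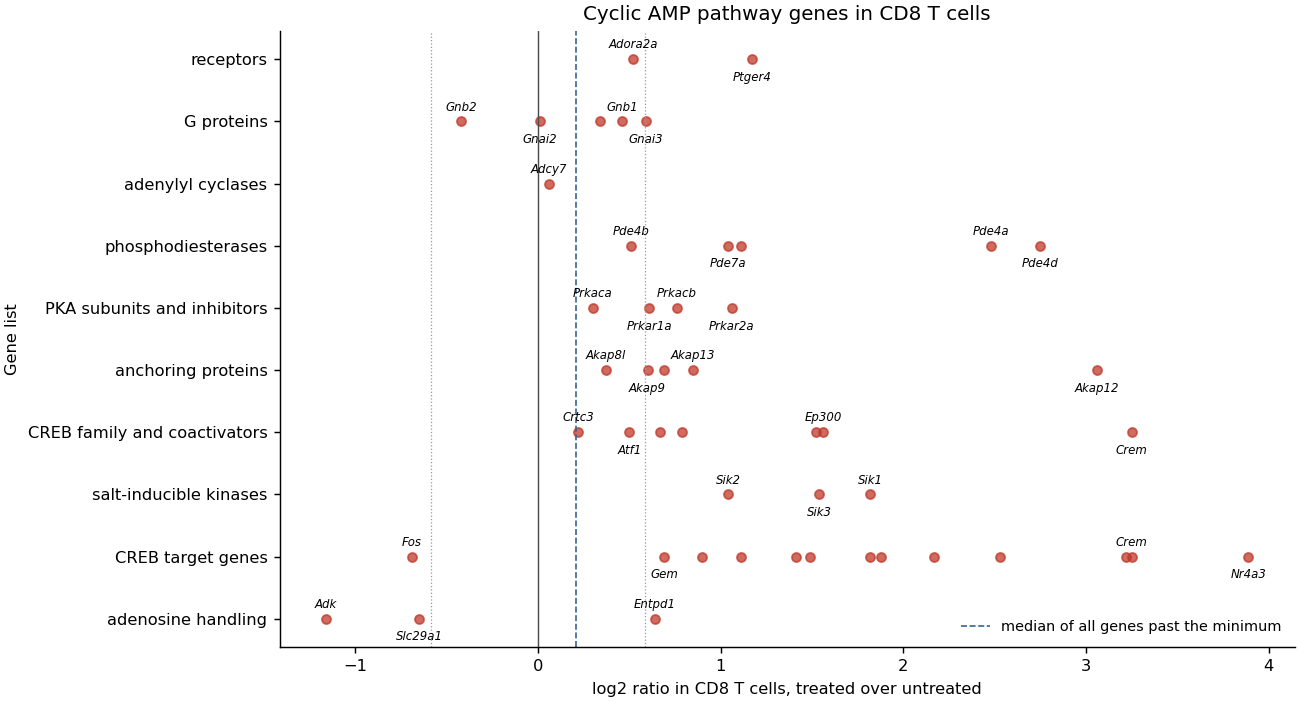
Log2 ratio of treated over untreated CD8 T cells for genes of each cyclic AMP list that passed the minimum, 1 receptor left out; each point is a gene, dotted lines mark 1.5-fold and the dashed line the median of all genes (0.21). CREB targets lie mostly to the right, led by Nr4a3 at 3.89, with Fos at -0.69, while Adk lies at -1.16.

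The genes whose levels followed Crem most closely were sought over 14 profiles, the 4 CD8 states and the CD4, Foxp3-positive and dendritic classes of each library, among 7286 genes. The closest by Pearson's r of log2(CPM + 10) was Zmiz1, a transcriptional coactivator, at 0.973. It was followed by Ppp2r5c, a regulatory subunit of protein phosphatase PP2A (0.962), Mafg, a small Maf transcription factor (0.961), Rab5a, a GTPase of early endosomes (0.957), Kdm2b, a histone demethylase (0.956), and Serinc1, a membrane protein (0.956). The profiles share 2 libraries, so a gene that differs between them in all classes scores high; over the 7 treated profiles alone, r was 0.836 for Zmiz1 and 0.564 for Mafg. Within the set, r with Crem was 0.877 for Pde4a, 0.796 for Pde4d, 0.771 for Creb1, 0.666 for Adora2a, 0.653 for Prkar1a, 0.336 for Pde4b and 0.136 for Pde3b over all 14 profiles. Within the 7 treated and 7 untreated profiles r was 0.701 and 0.611 for Pde4a, 0.495 and 0.623 for Pde4d, 0.507 and 0.518 for Creb1, 0.418 and 0.657 for Adora2a, and 0.746 and 0.588 for Prkar1a. Pde4b, at -0.540 and 0.031, and Pde3b, at -0.184 and -0.690, did not have the sign of the pooled value in both libraries.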

How the data were processed

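Single-cell libraries of mouse origin, from cells labelled T cells, 1 treated and 1 untreated, were analysed. Cell Ranger, Seurat and the human build GRCh38 are named, per the submitters' processing notes; versions are not given in the sources used here. Because the symbols are mouse symbols, no coordinates were taken from the table. The authors deposited the natural log of 1 plus UMIs per 10000 for 15121 genes and 17390 cells, in which the back-transformed values of each cell summed to 10000. Division by a cell's smallest back-transformed value gave its UMIs: all 38204229 nonzero entries came out whole to within 0.01. The suffix of each cell name was matched to a library through the sample number and cell number in the labels.

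Filters required 200 or more genes and no more than 10% mitochondrial UMIs per cell. The automatic threshold of Scrublet (in scanpy 1.11.5) marked 0.013% of treated and 0.033% of untreated cells and was taken as not working, so cells above the cut for the top 5% of scores in each library were removed (365 and 425), which left 7355 treated and 8671 untreated cells. UMIs were summed by library and class. Intervals are exact Poisson for levels, exact conditional binomial for ratios and Clopper-Pearson for shares, at 95%. With 1 library per group no test was made. Genes were named by a rule: the 8 members, the 2 highest and 2 lowest ratios of each list in CD8 T cells, and the 6 genes most like Crem; Pde2a, Adcy6 and Nt5e were named after their values were seen, and 1 gene that this rule picks is not reported. The members and lists were chosen with earlier results of these data known. In the GENCODE vM21 annotation no exon of the 8 genes overlaps another gene in the table except Crem, which overlaps the antisense gene Gm6225. Calculations used Python 3.11.15, numpy 2.4.6, scipy 1.17.1 and matplotlib 3.10.9. Alternatives covered gates, filters, scaling, thinning, minimum and state mix.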

Additional observations from a re-analysis of the deposited data

How the results depend on the processing

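Of 32 pairs of a gene and a class, 29 kept their sign in every alternative run for that class; the state mixes were run for CD8 T cells only. The exceptions were Pde3b in Foxp3-positive T cells (log2 ratio -0.19, range -0.32 to 0.25), Prkar1a in dendritic cells (0.22, range -0.07 to 0.41) and Pde4a in dendritic cells, whose log2 ratio was 1.06 as reported and -0.58 after thinning, which left 2 treated and 12 untreated cells with a UMI. The log2 ratio of Crem in CD8 T cells, 3.25 as reported, was 3.63 as a mean of cells, 3.09 without ribosomal and mitochondrial genes in the total, 3.04 with median scaling, 3.66 after thinning, 3.59 without cycling cells, 2.81 without naive-state cells, and 2.57 and 2.92 with the treated and untreated state mix, both chosen after seeing the data; the cause of these shifts was not tested. With a minimum of 100 CPM, 3 genes in place of 5 were higher in Foxp3-positive T cells and 2 in place of 5 in dendritic cells; 3 in dendritic cells had intervals past 1.5-fold. In CD8 T cells, Prkar1a fell within 1.5-fold without naive-state cells (log2 0.36), and Creb1 (0.52) and Prkar1a (0.45) did so without ribosomal and mitochondrial genes. Pde4b passed 1.5-fold there with the untreated state mix (1.13), which gave 4 genes higher in place of 6. Adora2a passed it as a mean of cells (0.76), after thinning (0.64) and without cycling cells (0.76), which each gave 7. Its log2 ratio was lower with the treated mix (0.08), with the untreated mix (0.24) and without naive-state cells (0.22). The treated mix and leaving out naive-state cells each gave 5 genes higher. A minimum of 100 CPM, median scaling, and leaving out ribosomal and mitochondrial genes each gave 4 in CD8 T cells. The log2 ratio of Pde4a there was 1.82 without naive-state and 3.37 without cycling cells. Without naive-state cells the log2 ratio of Crem in CD4 T cells was 1.32, and without cells of the same definition, which includes Ccr7, that of Adora2a in dendritic cells was 3.96. Dropping the limit on macrophage genes gave no value for dendritic cells. No paired analysis was possible because each group has 1 library. Dendritic values rest on 73 treated cells.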

Other observations

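Crem was also higher in the treated library in cells outside the 4 classes, by gates chosen after values were seen. T cells with no UMI of Cd4, Cd8a, Cd8b1 or Foxp3 (652 treated and 1193 untreated cells) had 509 CPM in the treated and 127 CPM in the untreated library, a ratio of 4.01 (3.71 to 4.34). Macrophage-gated cells (108 treated and 147 untreated) had 285 and 46.3 CPM, a ratio of 6.16 (4.89 to 7.84), and NK-gated cells (26 treated and 13 untreated) had 649 and 212 CPM, a ratio of 3.06 (2.06 to 4.65).

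Pde3b was at 75.2 CPM in treated and 21.3 CPM in untreated macrophage-gated cells, a ratio of 3.53 (2.44 to 5.19), and Pde4b at 124 and 59.8 CPM, a ratio of 2.07 (1.63 to 2.65). Adora2a was at 4.97 CPM in treated and 4.68 CPM in untreated macrophage-gated cells, from 7 and 9 UMIs, below the minimum. B-gated cells were too few in the untreated library (9 cells, against 84 treated) for values.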
